A study of Mus musculus with 6 samples.

Results

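The Rab GTPases and the proteins that switch, carry or read them were followed in sorted mouse cones with and without Bmal1, a core gene of the circadian clock. With earlier results of these data known, members were chosen by gene symbol. They are the numbered Rab genes, the Tbc1d and Dennd families, the Rab11fip, Rabep, Rabgap, Rabgef, Rab3gap and Rab3ip genes, Rabif, Rabac1, Gdi2 and Chm among others. The table held 84 such genes among 9720, of which 37 were Rab GTPases and 47 were regulators or effectors. Chml, Rab3il1, Rims1, Rims3 and Rims4, which the same symbols would take in, were not analysed here. Both groups carried HRGPcre, in which a cone pigment promoter drives Cre, and the Z/EG reporter, which turns on eGFP where Cre has acted. The knockout group was HRGPcre;Bmal1f/f;Z/EG and the control group HRGPcre;Bmal1f/+;Z/EG, so each control cone keeps 1 allele that Cre does not delete, although the design text calls the controls wild type. The mice were of C57BL/6 and mixed background, aged postnatal day 60 to 80 or 2 to 6 months depending on the label read, and kept on 12 h of light and 12 h of dark. Each group had 3 libraries of poly(A) RNA from eGFP-positive cells taken by flow sorting. Neither the number of animals in a library nor the hour of collection is given in the sources used here, so p-values measure the spread between these libraries, which may be technical.

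A Rab protein is a molecular switch on the surface of a membrane. A guanine nucleotide exchange factor loads it with GTP, the GTP-bound form recruits effectors such as tethers and motors, and a GTPase-activating protein, often with a TBC domain, returns it to the GDP-bound form. GDP dissociation inhibitors then keep the protein soluble until its next use, and Rab escort proteins bring newly made Rabs to the enzyme that attaches their lipid tails. Photoreceptors move large amounts of membrane protein to the outer segment and release transmitter from a ribbon synapse, and both routes use Rab proteins. Loss of RAB28 causes cone-rod dystrophy and loss of CHM, the gene of Rab escort protein 1, causes choroideremia in people.

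Values were FPKM, which are per transcript length, so levels can be set against each other between genes, and the depth behind them is unknown. All 12 cone markers examined were in the table, with sums from 4180.1 to 6998 FPKM in control and from 5599 to 6764 in knockout. All 15 rod markers were present too, at 3095 to 3806 FPKM and 2654 to 3739.7. Müller glia (7 of 9 markers in the table) and bipolar cells (8 of 9) gave sums of 86.4 to 123 FPKM. Of the 15 markers of amacrine, horizontal and ganglion cells, 5 were in the table, and they summed to 35.2 FPKM in control 1 and to 7.32 to 12.0 in the other 5 libraries. None of these markers passed the test, and the part of RNA from other cells in the levels below was not tested. Control 1 had the lowest mean correlation across genes with its own group, 0.901, against 0.927 to 0.953 for the others. Arntl, the gene of BMAL1, measured 2.9998, 2.60 and 3.27 FPKM in the control libraries and 3.37, 2.28 and 3.48 in the knockout libraries, a value over the whole gene that does not check the genotype. Nr1d1, a direct target of BMAL1, measured 38.3, 47.1 and 56.3 FPKM in the control libraries and 2.87, 4.62 and 4.91 in the knockout libraries, with an adjusted p of 0.000133 in limma.

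No Rab gene and no regulator passed the test between control and knockout cones. Of 76 members with a mean of at least 1 FPKM, 0 reached an adjusted p of 0.05 in limma, where 0.104% of 8627 tested genes did, 0.0464% higher and 0.058% lower in the knockout. At an unadjusted p under 0.05 there was 1 member, Rab34 (1.32%), against 5.49% of all tested genes. Differences are knockout minus control of log2(FPKM + 1) here and below, a scale that understates the change of low genes. They ran from -0.77 for Tbc1d13 to 0.56 for Rab12. They were positive for 33 members (43.4%, against 47.4% of all tested genes) and negative for 43. Their median was -0.03, and the median over all tested genes was -0.02. In bulk RNA, fewer cells of a type and less RNA per cell cannot be told apart, and this holds for each difference below.

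The precision allowed a bound on most members on this scale. For low members the same bound is looser as a ratio of FPKM, because 1 was added. For 67 of the 76, the 95% interval of the log2 difference lay within 1 in either direction, as it did for 85.4% of all tested genes. The other 9 were Rab7, Rab12, Rab34, Rab3ip, Dennd5b, Tbc1d13, Tbc1d17, Rab11fip5 and Rabac1, whose intervals reached past a difference of 1 on one side. The median absolute difference was 0.17 for members and 0.17 for all tested genes. The 33 Rab GTPases tested had a median of 0.01, and the 43 regulators and effectors one of -0.07. The count at an unadjusted p under 0.05 was 7 of 78 members without control 1 (8.97%, against 10.1% of all genes) and 6 of 76 after median-ratio scaling (7.89%, against 6.86%), and none of these passed after adjustment.

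**Figure D1:**
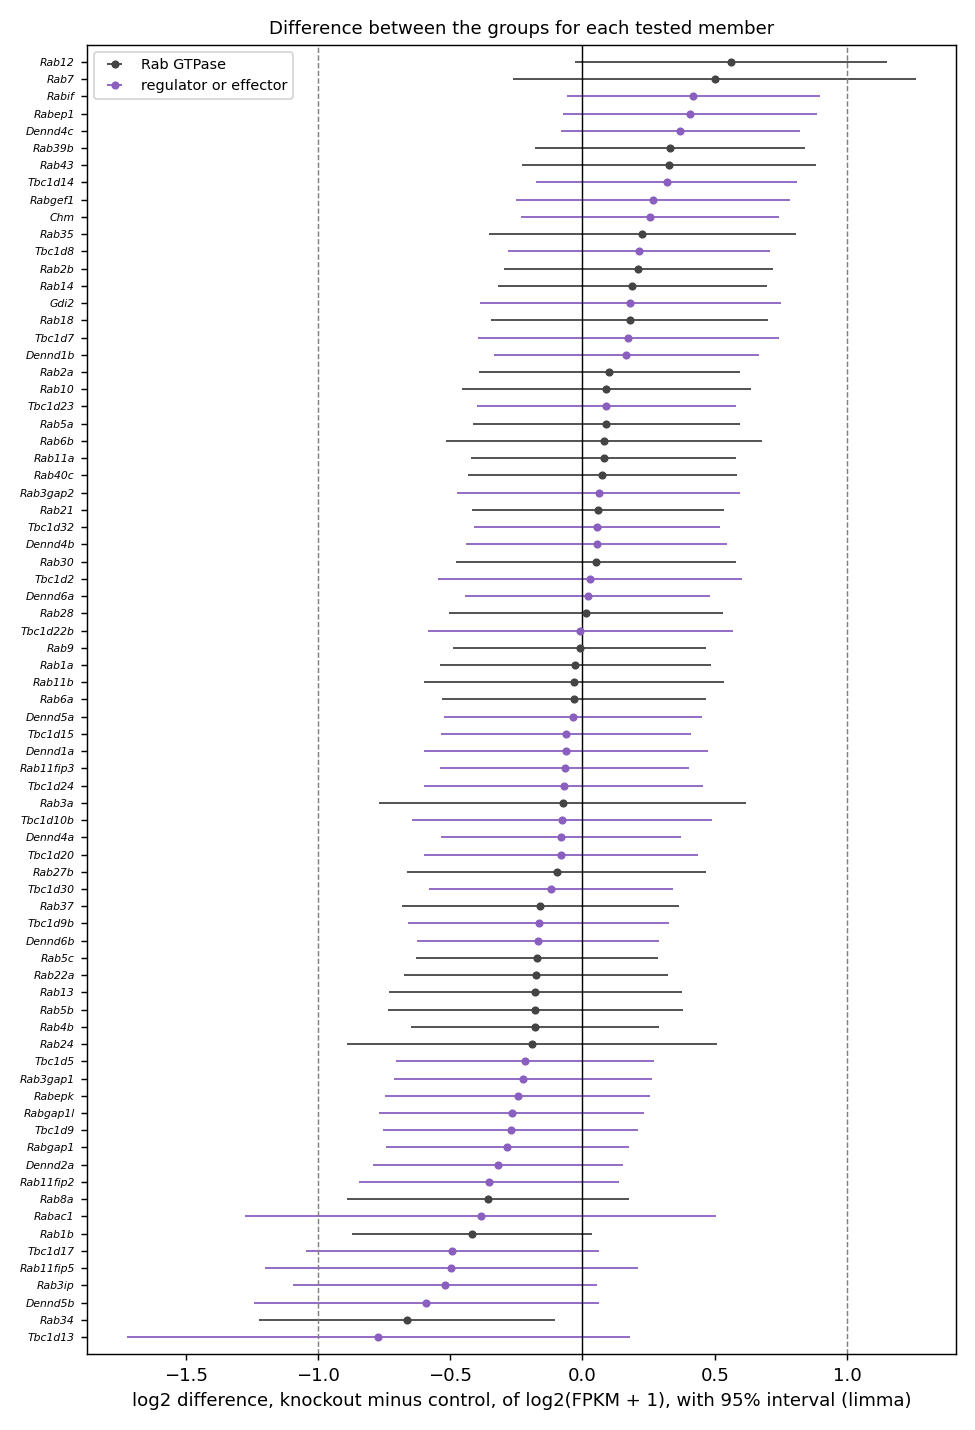
Log2 difference between knockout and control of log2(FPKM + 1) for 75 of the 76 tested members, with its 95% interval from limma; dark points are Rab GTPases, purple points are regulators and effectors, and dashed lines mark differences of 1. Most intervals cross 0 and stay between the dashed lines, and only that of Rab34 lies on one side of 0.

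In 6 tested members the 3 control and 3 knockout values did not overlap, or 7.89% against 9.39% of all tested genes. Of these, 3 were higher and 3 lower in the knockout, where 3.52% of all tested genes lay higher and 5.87% lower. Rab34, a GTPase of lysosome positioning and of ciliary membrane formation, measured 3.28, 2.39 and 2.47 FPKM in the control libraries and 2.15, 0.674 and 1.41 in the knockout libraries. All 3 knockout libraries were below the lowest control library, and they differed widely among themselves, with knockout 1 close to the controls. The log2 difference was -0.66 ± 0.26 (SE), with a 95% interval from -1.22 to -0.10, an unadjusted p of 0.024 and an adjusted p of 0.86 in limma. Rab1b, the less abundant of the Rab1 pair, which act between the endoplasmic reticulum and the Golgi, measured 3.29, 3.75 and 3.29 FPKM in the control libraries and 2.11, 2.06 and 2.86 in the knockout libraries. Both ends of the gap were near 3 FPKM, and the log2 difference was -0.42 ± 0.21, with an adjusted p of 0.90 in limma. Rabgap1, a GTPase-activating protein with a TBC domain, read 13.1, 10.2 and 11.5 FPKM in the control libraries and 8.57, 9.49 and 9.90 in the knockout libraries, a narrower gap, with a log2 difference of -0.28.

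The 3 members higher in every knockout library than in any control were Rabif, Rabep1 and Dennd4c. Rabif, which encodes the Rab-binding protein MSS4, measured 4.55, 4.79 and 4.30 FPKM in the control libraries and 7.47, 7.08 and 4.94 in the knockout libraries. Its knockout 3 value lay just above the controls, and the log2 difference was 0.42 ± 0.22. Rabep1 encodes Rabaptin-5, an effector of Rab5 on early endosomes, and read 6.28, 7.93 and 9.60 FPKM in the control libraries and 10.4, 11.2 and 10.5 in the knockout libraries. Its knockout libraries were close together and control 1 was lowest, with a log2 difference of 0.41 ± 0.22 that was 0.27 without control 1. Dennd4c, an exchange factor for Rab10, measured 3.54, 3.28 and 4.001 FPKM in the control libraries and 5.71, 4.63 and 4.56 in the knockout libraries, with a log2 difference of 0.37 ± 0.21. The adjusted p was 0.91 in limma for each of Rabif, Rabep1 and Dennd4c, so none of the 3 differences passed.

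On GRCm38, Rab34 lies on chromosome 11 from 78188430 to 78192193 and Rabep1 on the same chromosome from 70844778 to 70943105. Rab1b lies on chromosome 19 from 5099205 to 5107072, Rabgap1 on chromosome 2 from 37443279 to 37566454, Rabif on chromosome 1 from 134494648 to 134508774 and Dennd4c on chromosome 4 from 86748555 to 86850603. Rab7, the most abundant member, lies on chromosome 6 from 87999106 to 88045270, Rab12 on chromosome 17 from 66494512 to 66519729, Rab3ip on chromosome 10 from 116905784 to 116950769 and Rab28 on chromosome 5 from 41624976 to 41708157.

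BMAL1 acts with CLOCK on E-box elements, so the promoters of the members were searched for the canonical letters CACGTG. These letters read the same on both strands. RefSeq promoter windows of GRCm38.p6, from 250 bases before to 50 after the start, were found for 72 of the 84 members, with 95 windows in all. The other 12 included Rab18, Rab27b, Rab2a, Rab30, Rab36, Rab37, Rabep1, Tbc1d17, Tbc1d30, Tbc1d31 and Tbc1d32. The letters occurred in 15 of the 95 windows (15.8%), in 10.5% of the 8566 windows of tested genes and in 7.15% of all 32851 windows. The 14 genes with a match were Rab5a, Rab21, Rab24, Rab27a, Rab3gap2, Rabgap1, Dennd6a and the 7 Tbc1d genes Tbc1d5, Tbc1d7, Tbc1d13, Tbc1d14, Tbc1d15, Tbc1d20 and Tbc1d24. A match is a stretch of letters and does not show that a factor binds there.

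The 5 stretches below are shown because they carry the E-box letters, in capitals, upstream of a member's start and outside annotated exons, each read 5′ to 3′ along the gene. Windows of Rab3gap2, Rab5a and Rab27a and a further window of Dennd6a met the same terms and are not printed.
Rab21, chr10:115315596-115315641, minus strand: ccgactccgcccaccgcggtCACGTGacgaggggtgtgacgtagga
Tbc1d14, chr5:36582505-36582550, minus strand: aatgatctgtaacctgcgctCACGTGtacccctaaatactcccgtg
Tbc1d13, chr2:30133693-30133738, plus strand: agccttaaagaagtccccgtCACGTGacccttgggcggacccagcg
Tbc1d7, chr13:43171529-43171574, minus strand: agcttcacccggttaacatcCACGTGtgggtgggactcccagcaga
Dennd6a, chr14:26579473-26579518, plus strand: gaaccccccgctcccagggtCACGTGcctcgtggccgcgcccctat

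The first capital lies 30 bases before the start in Rab21, 33 in Tbc1d13 and 53 in Tbc1d7. In Tbc1d14 it lies 133 bases before a start inside the gene, whose 5′ end is at 36593276. In Dennd6a it lies 57 bases before a start inside the gene, whose 5′ end is at 26573856. In the further Dennd6a window, near that 5′ end, the letters lie 95 bases before the start. The levels of these 5 genes did not separate the groups. Rab21, an endosomal GTPase, measured 6.14, 8.52 and 8.24 FPKM in the control libraries and 7.06, 8.82 and 7.96 in the knockout libraries, with a log2 difference of 0.06 and a 95% interval from -0.42 to 0.53. Tbc1d14, a TBC protein of recycling endosomes and autophagy, measured 6.90, 5.09 and 8.05 FPKM in the control libraries and 7.38, 8.70 and 9.39 in the knockout libraries. Its log2 difference was 0.32, with an interval from -0.18 to 0.81. Both intervals cross 0. Dennd6a, an exchange factor, and Tbc1d7, a subunit of the tuberous sclerosis complex, had log2 differences of 0.02 and 0.17. Tbc1d13 had one of -0.77, with an interval from -1.72 to 0.18, and of -0.17 without control 1. Over the 13 tested members with a match, 6 differences were positive, with a median of -0.06. Over the 53 tested members with a window and no match, 22 were positive, with a median of -0.03.

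The level of Rab GTPases in control cones spanned from 0.604 FPKM for Rab33a to 65.8 FPKM for Rab7, with a median of 4.18 FPKM, against 3.87 FPKM over all genes in the table. Rab7, Rab11b, Rab2a, Rab1a and Rab3a together held 50.9% of the summed control level of the 37 Rab genes. The 37 genes summed to 241, 323 and 391 FPKM in control and to 329, 359 and 331 FPKM in knockout. The groups overlapped, and control 1 was lowest. As a share of each library's summed FPKM these were 0.284%, 0.302% and 0.304% in control and 0.322%, 0.351% and 0.309% in knockout, where the 2 sets of values did not overlap. That share has the whole table as its base, and the single gene model Gm17364 took 10.03% of control 3 and 0.503% to 2.88% of the others. With Gm17364 left out of the base, the Rab share was 0.285%, 0.310% and 0.338% in control and 0.332%, 0.360% and 0.317% in knockout, and the groups overlapped.

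**Figure D2:**
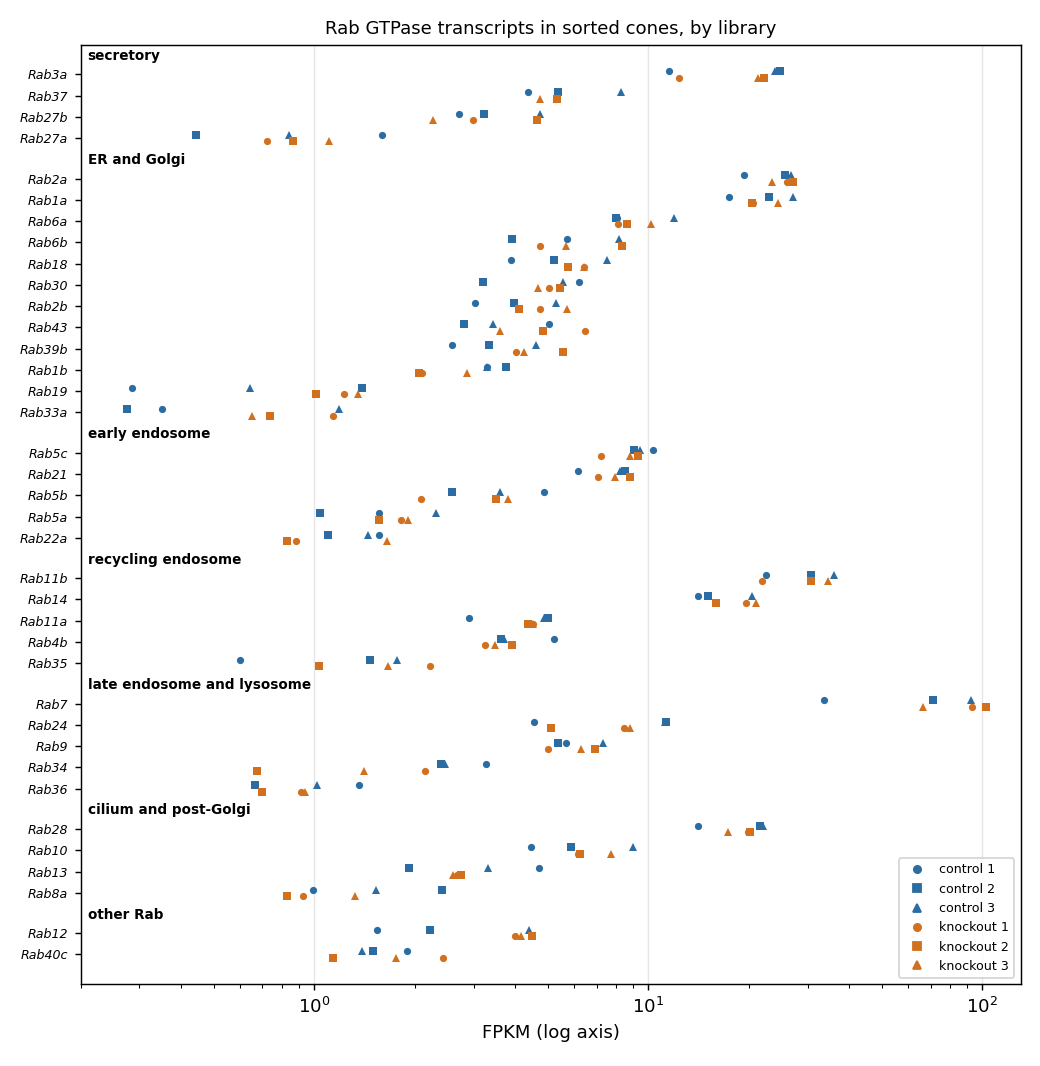
FPKM of the 37 Rab GTPase genes on a log axis, grouped by the compartment where each is best known, with 1 point per library (blue control, orange knockout; circle, square and triangle are libraries 1, 2 and 3). Rab7 lies furthest right, and in most rows blue and orange points interleave; in Rab1b and Rab34 all orange points lie left of the blue ones.

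The secretory Rabs act in docking and release of vesicles. Rab3a, the GTPase of synaptic vesicles, was the most abundant of the 4 and measured 11.5, 24.8 and 23.9 FPKM in the control libraries and 12.4, 22.2 and 21.3 in the knockout libraries. Control 1 and knockout 1 were both near 12 FPKM and the other 4 libraries were above 21 FPKM, so the spread lay within the groups. Its log2 difference was -0.07, with an interval from -0.77 to 0.62, and its sign changed without control 2 or control 3 and without knockout 1. Rab37, of secretory granules, measured 6.01 ± 2.04 FPKM in control and 5.12 ± 0.341 in knockout (mean ± SD, n = 3 each, as for all such pairs below). Of the Rab27 pair, which acts in granule docking, Rab27b measured 3.55 ± 1.05 FPKM in control and 3.30 ± 1.21 in knockout. Rab27a measured 0.960 ± 0.585 FPKM in control and 0.899 ± 0.196 in knockout and was under the minimum level for the test. None of the 3 tested secretory genes had an adjusted p below 0.9996 in limma.

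Rabs of the endoplasmic reticulum and Golgi were the most numerous, with 12 genes that summed to 88.4 ± 15.5 FPKM in control and 92.7 ± 1.77 in knockout. Rab2a and Rab1a, which act in traffic between these compartments, led this class. Rab2a measured 19.4, 25.6 and 26.7 FPKM in the control libraries and 26.1, 27.2 and 23.4 in the knockout libraries. Rab1a measured 17.4, 22.9 and 27.2 FPKM in the control libraries and 20.5, 20.5 and 24.4 in the knockout libraries. Neither separated the groups, and in both control 1 was the lowest library. Of the Golgi Rabs, Rab6a measured 9.33 ± 2.27 FPKM in control and 8.98 ± 1.08 in knockout, and 708 of its exonic bases overlap Mrpl48 on the other strand. Rab6b measured 5.93 ± 2.15 FPKM in control and 6.24 ± 1.86 in knockout, and Rab2b, the lesser paralog of Rab2a, 4.10 ± 1.13 FPKM in control and 4.84 ± 0.805 in knockout. Of the 10 tested genes, 7 had a positive difference (70%, against 47.4% of all tested genes) and 3 a negative one, and none passed. At the positive end, Rab39b, a neuronal Rab of the Golgi, measured 2.59, 3.33 and 4.61 FPKM in the control libraries and 4.03, 5.56 and 4.26 in the knockout libraries. Rab43, which acts in transport through the Golgi, measured 5.04, 2.81 and 3.42 FPKM in the control libraries and 6.46, 4.85 and 3.60 in the knockout libraries. Their log2 differences were 0.33 and 0.33, the ranges of the groups overlapped in both, and adjusted p was 0.94 and 0.96 in limma. Rab43 shares 4164 exonic bases on the same strand with the gene model Gm45140, so its value is uncertain. Under the minimum level, Rab19 measured 0.771 ± 0.564 FPKM in control and 1.199 ± 0.174 in knockout and Rab33a 0.604 ± 0.506 FPKM in control and 0.841 ± 0.259 in knockout. Rab18 and Rab30 had log2 differences of 0.18 and 0.05.

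On early endosomes Rab5c was the leading Rab5 gene, with 10.3, 9.05 and 9.43 FPKM in the control libraries and 7.21, 9.33 and 8.82 in the knockout libraries. The knockout values were within or below those of the controls, and the log2 difference was -0.17 with an interval from -0.63 to 0.29. Rab5b measured 3.68 ± 1.14 FPKM in control and 3.13 ± 0.919 in knockout. Rab5a measured 1.64 ± 0.638 FPKM in control and 1.76 ± 0.179 in knockout. Rab22a, another early endosomal Rab, measured 1.37 ± 0.239 FPKM in control and 1.12 ± 0.463 in knockout. The 5 early endosomal genes summed to 23.9 ± 1.44 FPKM in control and 22.4 ± 2.91 in knockout, a difference smaller than the larger SD. Among recycling Rabs, Rab11b, which acts at the recycling endosome, measured 22.5, 30.8 and 35.9 FPKM in the control libraries and 22.0, 30.6 and 34.5 in the knockout libraries. Library 1 was lowest in both groups, and the log2 difference was -0.03. Its paralog Rab11a, of the carriers that bring opsin to the outer segment, measured 4.27 ± 1.19 FPKM in control and 4.47 ± 0.099 in knockout. Rab14, of the Golgi and endosomes, measured 16.5 ± 3.38 FPKM in control and 18.9 ± 2.66 in knockout. No difference among these recycling genes passed. Rab35, of recycling to the plasma membrane, measured 1.28 ± 0.606 FPKM in control and 1.64 ± 0.596 in knockout. Rab4b, of fast recycling, measured 4.18 ± 0.901 FPKM in control and 3.54 ± 0.340 in knockout. It shares 1280 exonic bases on the same strand with Gm21983, so its value is uncertain too.

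Late endosomal and lysosomal Rabs were dominated by Rab7, which directs fusion with the lysosome and held 77.7% of the control level of these 5 genes. It measured 33.5, 71.2 and 92.7 FPKM in the control libraries and 93.4, 103 and 66.4 in the knockout libraries. Control 1 was far below the other 5 libraries, among which the groups overlapped. The log2 difference was 0.50 with an interval from -0.26 to 1.26, and it was 0.08 without control 1. Rab24, known from autophagy, measured 4.56, 11.3 and 11.2 FPKM in the control libraries and 8.46, 5.10 and 8.80 in the knockout libraries, and 1258 of its exonic bases overlap Prelid1 on the other strand. Rab24 had a log2 difference of -0.19 and -0.57 without control 1 (adjusted p = 0.44, limma). Rab9, of transport from late endosomes to the Golgi, measured 6.12 ± 1.03 FPKM in control and 6.07 ± 0.961 in knockout. Rab36, under the minimum level, measured 1.02 ± 0.349 FPKM in control and 0.851 ± 0.133 in knockout.

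Among Rabs of the cilium and of traffic after the Golgi, Rab28 was the most abundant. It measured 14.1, 21.5 and 22.0 FPKM in the control libraries and 19.8, 20.1 and 17.3 in the knockout libraries, with a log2 difference of 0.01 and an interval from -0.50 to 0.53. The 3 knockout values lay inside the range of the controls. Rab8a, which works in ciliary membrane transport, was much lower, with 0.992, 2.41 and 1.53 FPKM in the control libraries and 0.924, 0.829 and 1.33 in the knockout libraries. Its log2 difference was -0.36, and -0.54 without control 1 (adjusted p = 0.43, limma). Rab10, of exocytic carriers, measured 6.44 ± 2.31 FPKM in control and 6.71 ± 0.869 in knockout. Rab13, of junctions and surface delivery, measured 3.31 ± 1.40 FPKM in control and 2.68 ± 0.076 in knockout. Of the other Rabs, Rab12, which acts in endosome to lysosome traffic, measured 1.54, 2.22 and 4.39 FPKM in the control libraries and 3.997, 4.48 and 4.17 in the knockout libraries. The knockout libraries were close together, control 3 lay among them, and controls 1 and 2 were lower. The log2 difference was 0.56 ± 0.27, with an interval from -0.03 to 1.15 and an adjusted p of 0.90 in limma, and 0.32 without control 1. Rab40c measured 1.60 ± 0.262 FPKM in control and 1.78 ± 0.651 in knockout.

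Exchange factors, which switch Rabs on, were represented by 13 genes that summed to 87.0 ± 11.2 FPKM in control and 86.7 ± 3.33 in knockout. Rabgef1, which encodes the Rab5 exchange factor Rabex-5, held 30.5% of the control sum and measured 25.3, 21.1 and 33.2 FPKM in the control libraries and 35.1, 29.7 and 30.4 in the knockout libraries. Control 3 lay among the knockout libraries, and the log2 difference was 0.27 with an interval from -0.25 to 0.79. Rab3ip, which encodes Rabin8, the exchange factor of Rab8 at the base of the cilium, measured 7.67, 13.3 and 15.3 FPKM in the control libraries and 8.11, 6.56 and 8.94 in the knockout libraries. Controls 2 and 3 were above all knockout libraries and control 1 was among them. The log2 difference was -0.52 ± 0.26 (adjusted p = 0.90, limma), and -0.79 without control 1 (adjusted p = 0.22, limma).

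The 10 Dennd genes, exchange factors with a DENN domain, had control means from 1.33 to 9.01 FPKM. Dennd5a was highest, at 9.01 ± 1.96 FPKM in control and 8.64 ± 0.434 in knockout, and Dennd2a measured 3.46 ± 0.406 FPKM in control and 2.60 ± 0.606 in knockout. Dennd5b read 11.4, 4.19 and 5.12 FPKM in the control libraries and 4.54, 3.59 and 3.54 in the knockout libraries. Control 1 stood apart from the other 5 libraries, and the log2 difference of -0.59 became -0.21 without it. Of the 10, 4 differences were positive (40%, against 47.4% of all tested genes) and 6 negative, with a median of -0.05. The 6 exchange factors outside the rule for named genes, which takes out those of smallest p, had log2 differences from -0.17 to 0.17.

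GTPase-activating proteins, which switch Rabs off, were the largest class, with 24 genes, 20 of them Tbc1d genes. Activity on a Rab has not been shown for every TBC protein. Together they summed to 117 ± 17.4 FPKM in control and 110.2 ± 7.19 in knockout. The Tbc1d genes were mostly low, with a median control level of 2.33 FPKM. Tbc1d8 was the most abundant of them and measured 24.5, 23.1 and 30.4 FPKM in the control libraries and 33.8, 26.4 and 30.5 in the knockout libraries. Control and knockout values overlapped, with a log2 difference of 0.21. The 420 exonic bases that it shares with the ribosomal protein gene Rpl31 on the other strand make its level uncertain, since it is not known here if the counting separated the strands. Rabgap1l, a relative of Rabgap1, measured 14.1 ± 3.24 FPKM in control and 11.4 ± 1.22 in knockout.

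Of the 21 tested members of this class, 14 differences were negative and 7 positive (33.3%, against 47.4% of all tested genes). The median was -0.08, and none of the 21 passed. Tbc1d13, a regulator of Rab35, had the most negative difference of all members, -0.77 with an interval from -1.72 to 0.18. It read 10.2, 1.94 and 2.59 FPKM in the control libraries and 0.852, 2.40 and 2.79 in the knockout libraries. Control 1 stood far above the other 5 libraries, and without it the difference was -0.17. Tbc1d17, a TBC protein known to act on Rab8, measured 2.42, 3.17 and 5.10 FPKM in the control libraries and 2.39, 1.61 and 2.53 in the knockout libraries. Its groups overlapped at control 1, the log2 difference was -0.49, and it was -0.68 without control 1 (adjusted p = 0.34, limma). Tbc1d17 shares 3423 exonic bases with Il4i1 on the other strand. Tbc1d31, Tbc1d12 and Tbc1d2b were under the minimum level. Tbc1d31 measured 0.800 ± 0.590 FPKM in control and 1.17 ± 0.542 in knockout, and Tbc1d12 0.888 ± 0.301 FPKM in control and 0.702 ± 0.104 in knockout. Tbc1d2b measured 0.834 ± 0.401 FPKM in control and 0.478 ± 0.049 in knockout. Of the 8 members under the minimum, its groups alone did not overlap, and it was not tested. Groups did not overlap in 9.39% of all tested genes, and the share over genes under the minimum was not computed. The 15 other members of the class had log2 differences from -0.27 to 0.17, and their groups all overlapped. They are those left after the rule for named genes took out the members of smallest p, which favours this outcome.

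**Figure D3:**
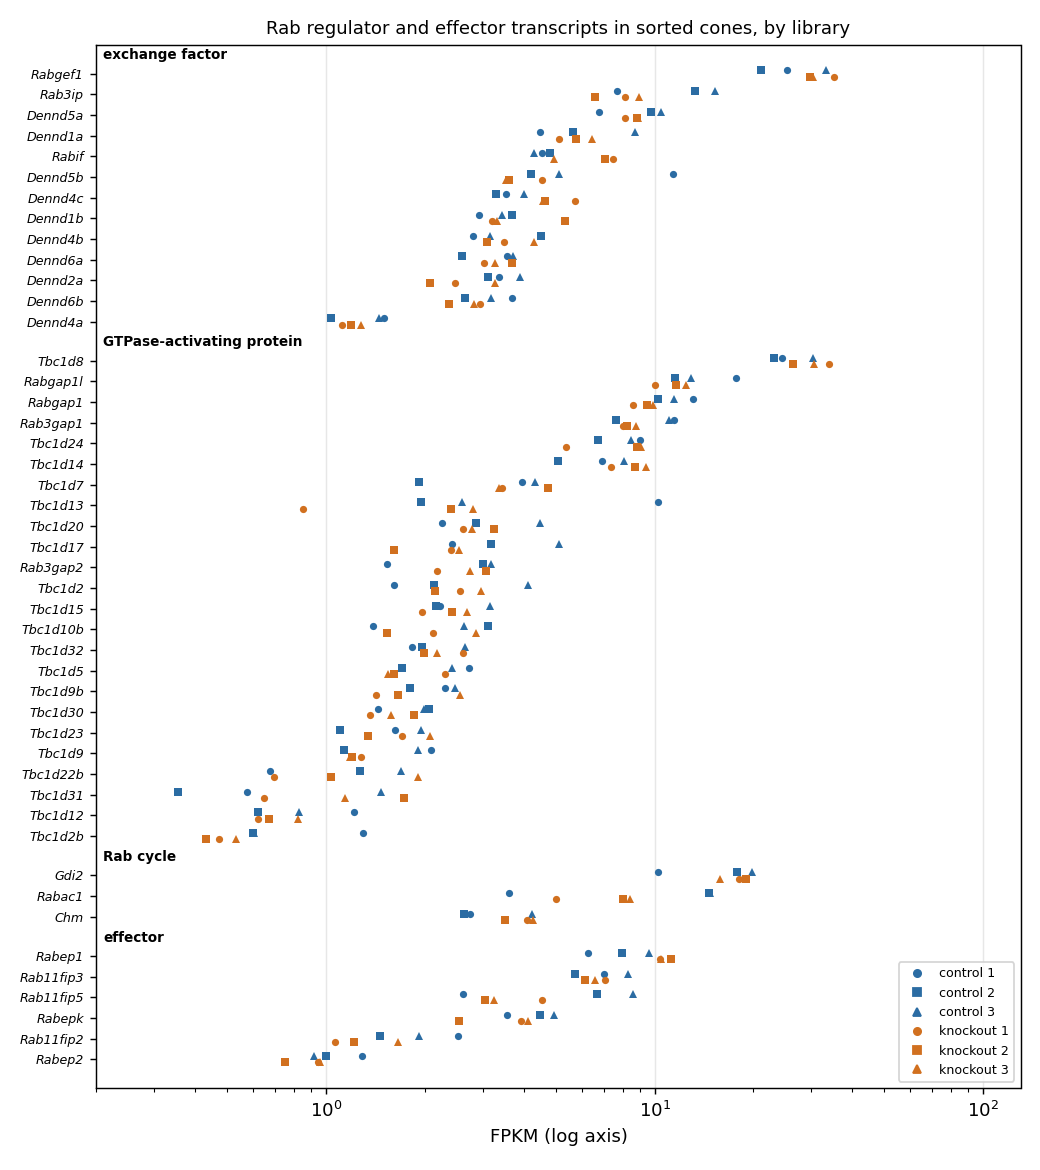
FPKM of 46 regulator and effector genes on a log axis, in 4 classes, with 1 point per library (blue control, orange knockout; circle, square and triangle are libraries 1, 2 and 3). The circle of control 1 stands well to the right of all other points in Tbc1d13 and Dennd5b and is the leftmost point in Rabac1 and Rab11fip5.

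The genes of the Rab cycle keep and deliver the GDP-bound form. Gdi2, a GDP dissociation inhibitor, measured 10.3, 17.8 and 19.9 FPKM in the control libraries and 18.1, 19.0 and 15.9 in the knockout libraries. Control 1 was lowest, the groups overlapped, and the log2 difference was 0.18. Of the exonic bases of Gdi2, 1184 overlap Fam208b on the other strand, so its level is uncertain. Chm, the gene of Rab escort protein 1, measured 2.74, 2.62 and 4.25 FPKM in the control libraries and 4.09, 3.505 and 4.28 in the knockout libraries. Control 3 lay among the knockout libraries, and the log2 difference was 0.26 with an interval from -0.23 to 0.74. Rabac1, which encodes the prenylated Rab acceptor PRA1, measured 3.61, 14.6 and 14.8 FPKM in the control libraries and 4.999, 8.02 and 8.44 in the knockout libraries. Controls 2 and 3 were near 15 FPKM, above all knockout libraries, and control 1 was below them all. The log2 difference was -0.38 ± 0.41 (adjusted p = 0.99, limma) and -0.97 without control 1 (adjusted p = 0.16, limma), the smallest adjusted p that any member reached in the alternatives run.

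Effectors other than Rabep1 comprised Rabep2, Rabepk and 3 Rab11 family interacting proteins, which link Rab11 to motors and recycling carriers. Rab11fip3 measured 7.01 ± 1.30 FPKM in control and 6.59 ± 0.481 in knockout, with a log2 difference of -0.07. Rab11fip5 read 2.61, 6.70 and 8.58 FPKM in the control libraries and 4.53, 3.04 and 3.26 in the knockout libraries. Its control values were spread from the lowest to the highest of the 6, the log2 difference was -0.49, and it was -0.91 without control 1 (adjusted p = 0.18, limma). Rab11fip2 measured 1.97 ± 0.538 FPKM in control and 1.31 ± 0.309 in knockout, with a log2 difference of -0.35. All 3 differences were negative and none passed. That of Rab11fip3 was 0.05 without control 3. Rabep2, a relative of Rabep1 under the minimum level, measured 1.07 ± 0.193 FPKM in control and 0.884 ± 0.118 in knockout. Rabepk, a Rab9 effector, had a log2 difference of -0.25. The 24 tested members outside the rule for named genes had mean levels of 1.21 to 9.19 FPKM. Their groups all overlapped, which is largely set by that rule, since it takes out the members of smallest p.

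Control 1 was the extreme library for most members. It was below all other 5 libraries for 31 of the 76 tested members (40.8%) and above them for 16 (21.1%). Over all tested genes the shares were 39.1% and 15.6%. The median coefficient of variation of members was 27.7% in control and 15.3% in knockout, against 27.2% and 19.6% over all genes. Without control 1 the median difference of members was -0.10, and that of all genes tested then was -0.10. At an unadjusted p under 0.05 in limma there were then 7 members (8.97%, against 10.1% of all genes). They were Rabac1, Rab11fip5, Rab3ip, Tbc1d17, Rab8a, Rab24 and Rab34, all with negative differences. In that fit only 32.1% of members and 35.1% of all genes had a positive difference. It rests on 2 control libraries.

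**Figure D4:**
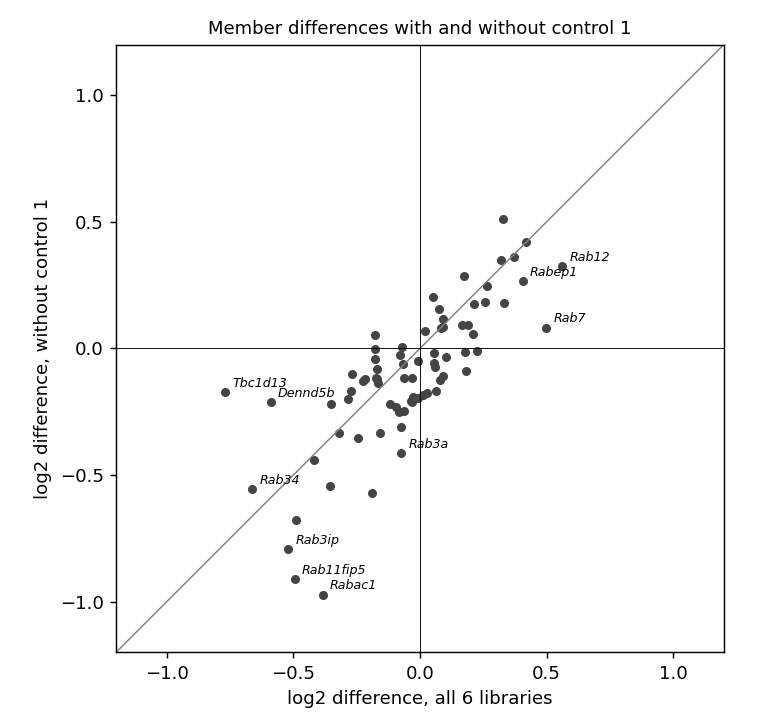
Log2 difference between knockout and control for members tested in both fits, with all 6 libraries on the x axis and without control 1 on the y axis; the grey line marks equal values. Tbc1d13, Dennd5b and Rab7 move toward 0 without control 1, and Rabac1, Rab11fip5 and Rab3ip move further below 0.

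Where a Rab number or a protein name is shared by several genes, the share of each within a library does not depend on the scaling of that library. In 7 pairs and 1 trio, the gene named first led on average. Rab1a held 86.4% ± 2.58 in control and 90.3% ± 0.732 in knockout of the Rab1 level (mean ± SD, n = 3 each). By library this was 84.1, 85.9 and 89.2% in control and 90.7, 90.8 and 89.5% in knockout, and the groups did not overlap although the gap between control 3 and knockout 3 was narrow. Rabep1 held 87.7% ± 4.25 in control and 92.4% ± 1.21 in knockout of the level of Rabep1 and Rabep2, again without overlap. The exact two-sided permutation p was 0.1 for Rab1 and for Rabep, the smallest that 3 against 3 can give, and 0.40 after adjustment over the 8 comparisons. Rab11b held 87.5% ± 1.37 in control and 86.3% ± 2.94 in knockout of the Rab11 level, and Rab2a held 85.5% ± 1.77 in control and 84.0% ± 3.29 in knockout of the Rab2 level. In both pairs the groups overlapped. Rab5c held 64.8% ± 5.69 in control and 63.4% ± 2.42 in knockout of the Rab5 trio. Rab27b held 78.6% ± 13.6 in control and 77.3% ± 9.01 in knockout of the Rab27 pair. Rab6a held 61.7% ± 4.76 in control and 59.4% ± 7.40 in knockout of the Rab6 pair. Among pairs, the leading gene held a smaller part of the Rab6 level than of the Rab1, Rab2 and Rab11 levels in both groups. The Rab5 share is of a trio, so it is not comparable with those of pairs. Rab3gap1, the catalytic subunit of the Rab3 GTPase-activating complex, held 79.2% ± 8.36 in control and 75.9% ± 2.91 in knockout of its level and that of Rab3gap2, the other subunit. The groups overlapped in these 4 as well. On the other strand, Rab2b shares 2469 exonic bases with Gm43766 and Rab3gap2 shares 2034 with Iars2. Rabep2, which was under the minimum level, shares 763 with Atp2a1, and Rab6a shares 708 with Mrpl48. The Rab2, Rab3gap, Rabep and Rab6 shares are therefore uncertain. Shorter overlaps in these families are not listed.

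**Figure D5:**
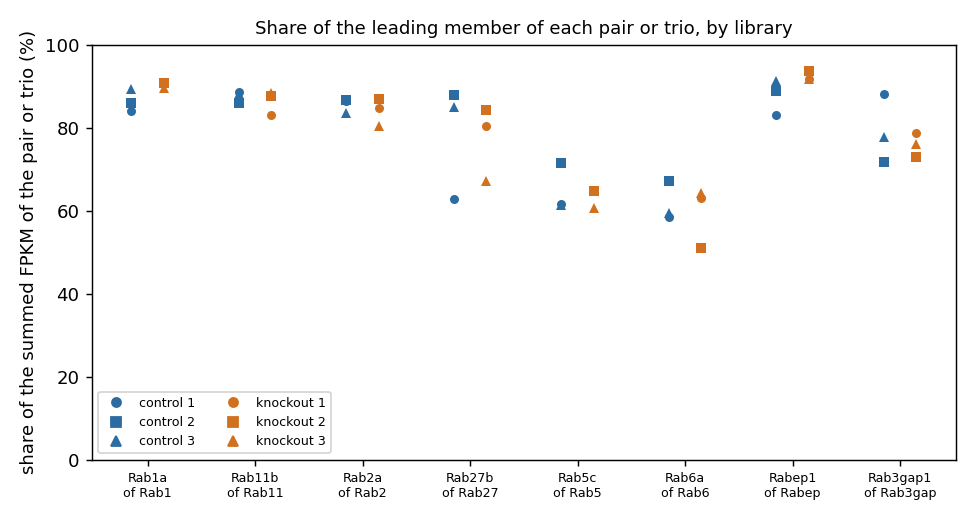
Share of the leading gene in the summed FPKM of 7 pairs and the Rab5 trio, in percent, with 1 point per library (blue control, orange knockout; symbols as library numbers). Orange points lie above blue ones for Rab1a and Rabep1, and the groups overlap in the other 6.

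Genes of the Rab pathway outside these families were taken from a list of 98 symbols, of which 71 were in the table and 68 were tested. None passed in limma, and 2 had an unadjusted p under 0.05, or 2.94% against 5.49% of all tested genes. They were Trappc1 and Rilpl2. Trappc1 encodes a core subunit of TRAPP, the exchange factor complex of Rab1, and measured 23.5, 26.4 and 25.8 FPKM in the control libraries and 12.5, 14.4 and 18.7 in the knockout libraries. All knockout libraries lay below all controls, with a log2 difference of -0.71 ± 0.23, an interval from -1.21 to -0.22 and an adjusted p of 0.65 in limma. Rilpl2, a ciliary protein related to the Rab7 effector RILP, measured 1.56 ± 0.221 FPKM in control and 0.813 ± 0.261 in knockout, with an adjusted p of 0.90 in limma. Mon1b, a subunit of the Rab7 exchange factor, measured 2.62 ± 0.625 FPKM in control and 1.66 ± 0.270 in knockout.

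Positive differences in that list were led by Ehbp1, an effector of Rab8 and Rab10, Evi5, a TBC protein linked to Rab11, and Trappc11, a TRAPP subunit, with log2 differences of 0.50, 0.34 and 0.32 and adjusted p of 0.93, 0.93 and 0.95 in limma. By the mean over the 6 libraries, the 3 most abundant genes of the list act at the synapse. By control mean, Trappc6b, a TRAPP subunit, at 29.3 FPKM ranked above Rims2 at 28.5 FPKM. Madd, the exchange factor of Rab3 and Rab27, measured 62.2, 65.0 and 81.4 FPKM in the control libraries and 55.1, 63.0 and 74.0 in the knockout libraries, a level close to that of Rab7 and above that of Rab3a itself. Unc13b, a priming factor that works with Rab3 effectors, measured 43.2 ± 6.88 FPKM in control and 40.0 ± 1.33 in knockout. Rims2, the Rab3 effector of the active zone, measured 26.8, 28.6 and 30.1 FPKM in the control libraries and 33.6, 36.3 and 33.5 in the knockout libraries. All 3 knockout values of Rims2 lay above the controls, the log2 difference was 0.27 with an interval from -0.20 to 0.73, and the adjusted p was 0.96 in limma. The groups did not overlap in 6 tested genes of the list (8.82%, against 9.39% of all tested genes). Of these, 1 was higher and 5 lower in the knockout, where 3.52% of all tested genes lay higher and 5.87% lower. Of the 68 differences tested, 30 were positive (44.1%, against 47.4% of all tested genes) and 38 negative, with a median of -0.02.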

How the data were processed

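The authors deposited FPKM values for 9720 protein-coding genes, 1 column per library, each library made from 100 ng of RNA according to the labels. Tools named in the submitters' processing notes, with no roles, are TopHat2 2.1.0, Cufflinks 2.2.1, HTSeq and DESeq2, with build mm10. Sources used here do not name the annotation or the strand setting. No member has a library at the table's lowest value of 0.1 FPKM. FPKM carry no depth, so precision rests on the spread between libraries.

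Groups came from the genotype labels. Genes with a mean FPKM of at least 1 were kept (8627 genes, 76 members), log2(FPKM + 1) was fitted in limma 3.58.1 under R 4.3.3 with a variance trend, and two-sided p-values were adjusted by Benjamini-Hochberg across those genes, with 0.05 as threshold. The fit was tested on simulated data. Tables and plots used Python 3.11.15 with pandas 2.3.3, and matplotlib 3.10.9. Positions and exon overlaps are from GENCODE vM21 (GRCm38), which held all 84 member IDs, 56 in the same version. Exons of 40 members overlap another gene, and close paralogs may share reads.

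Values of 1 member are not reported here, though counts and sums over members include it. Members and lists were chosen with earlier results of these data known. By rule, the text names the 10 members of smallest p in each direction, the 3 most abundant and 2 of smallest p per class, paralogs of 1 Rab number and members under the minimum level. From the pathway list it names the 3 of smallest p in each direction and the 3 most abundant. E-box carriers, members with no promoter window, Rab18, Rab30, Rabepk, Trappc6b and the Rab3gap genes were named after their values were seen. Alternatives were other pseudocounts, filters, scalings, array weights, no trend, a replicate block, and leaving out each library.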

Additional observations from a re-analysis of the deposited data

How the results depend on the processing

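No member and no gene of the pathway list passed an adjusted p of 0.05 in limma under any of the 16 alternatives run. The count of members at an unadjusted p under 0.05 is given here with its share of members against the share of all genes. It was 1 (1.32% against 5.49%), and became 0 with a filter at a mean of 5 FPKM (0% against 5.14%), 6 with median-ratio scaling (7.89% against 6.86%), 5 with each library scaled to one sum (6.58% against 6.36%), 5 with quantile normalization (6.58% against 6.64%) and 10 with array weights (13.2% against 11.2%). With the replicate number as a block it was 2 (2.63% against 5.67%). It ranged from 0 to 7 when 1 library was left out, with 7 without control 1 (8.97% against 10.1%), 3 without control 2 (3.85% against 5.53%), 3 without control 3 (3.90% against 6.60%), 0 without knockout 2 (0% against 3.20%) and 2 without knockout 3 (2.63% against 6.93%). The cause was not tested, except that the stricter filter tests 34 members. Over all genes, array weights gave 23 calls in place of 9. Same-numbered libraries deviated with correlations of -0.118, -0.085 and -0.034, which showed no pairing by number. With 3 libraries per group and no label that says what the number marks, a pairing is not excluded. The block left 6 calls over all genes. The median difference of members ranged from -0.10 to 0.11 when 1 library was left out, the ends being the fits without control 1 and without control 3. Of 61 named genes tested, 24 changed sign in at least 1 alternative and 37 in none. At a pseudocount of 0.1 FPKM the difference of Rab34 was -1.01. Unknown depth limits what can be said of members near 1 FPKM.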
